A study of Arabidopsis thaliana with 36 samples.

Results

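These are the 150 nuclear transcripts of Arabidopsis thaliana seedlings with the strongest late-day peak, chosen from 6778 nuclear genes that were bright enough to test. They were selected on their measured levels. A gene qualified when its mean level was highest at ZT12 (Zeitgeber time, hours after lights on) and its 3 ZT12 values all lay above the 3 values of its lowest time. Of the 1419 genes highest at ZT12, 1040 had values separated in this way, and the 150 with the largest range between their highest and lowest time were taken. The level of a gene was the mean of its 3 ribosome fractions in each extract, on a log2 scale. The times of these levels chose the genes, so the levels are described below without a test, and tests are given only for differences between ribosome fractions, which the choice did not use.

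The material was the aerial part of wild-type Columbia seedlings, 10 days old, grown on agar that held 1% sucrose, with a light period of 16 h and a night of 8 h. Seedlings were harvested at ZT0, ZT6, ZT12 and ZT18, so that ZT12 fell late in the light period and ZT18 in the dark. At each time RNA was split into a large polysomal, a small polysomal and a non-polysomal fraction, meaning mRNA with many, with few or without ribosomes, and each time and fraction had 3 arrays, 36 in all. Seedlings overexpressing CCA1, which the design also names, were not analysed here. All groups shared 1 ecotype, genotype, age and growth condition, and it was not stated whether replicates came from separately grown plants, so the p-values speak only for the spread among these arrays, which may be technical.

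Plant transcript levels follow the day through the circadian clock, light, sugar supply and temperature. Late in the day leaves hold starch made during the light, which enzymes of starch breakdown will use in the night. The clock also restricts when in the day cold-response genes are transcribed. Whether either acts on the genes below was not tested. How many ribosomes a transcript carries is a separate layer: mRNA in large polysomes is taken to be translated by many ribosomes at once, and non-polysomal mRNA is stored, bound to single subunits or on its way to decay.

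Values of replicate arrays correlated at 0.934 or more within each group. Of 9 leaf marker genes tested, all were bright, with means between 9.92 and 14.1 (log2 level). Of 2 root markers with a probe set, the root-abundant glucosidase gene PYK10 had a mean of 9.95 and EXPA7, a root hair expansin, was not tested because its mean lay next to the table's lowest value. None of these markers was among the 150 genes. Plastid-encoded signal differed between extracts, with mean levels of 7.76, 11.08 and 10.15 in ZT18 replicates 1, 2 and 3, and the other 9 extracts lay between 8.04 and 9.98. Replicate 1 was the lowest at every time. It had 8.38 at ZT0, against 9.81 and 9.27 in replicates 2 and 3, and 8.04 at ZT6, against 9.23 and 8.93. At ZT12 it had 8.18, against 9.39 and 9.98. Control RNA was also unequal: added polyadenylated controls gave a large minus non-polysomal difference of -1.86 at ZT0, -0.97 at ZT6, -1.61 at ZT12 and -2.02 at ZT18 (log2, means of 3 extracts). The separate hybridisation controls gave -0.71, -0.54, -0.70 and -1.04 at the same times. Their level was also lowest in replicate 1 at every time. The part of these controls in the loading values below was not tested.

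Most of the late-day transcripts were lowest at lights on. Of the 150, 125 had their lowest level at ZT0, 15 at ZT18 and 10 at ZT6. Their range was 1.31 to 6.75 on the log2 scale, a fold of 2.47 to 108, with a median of 1.80, against a median of 0.63 over the nuclear genes tested. The range exceeded 2 log2 units in 60 genes and 3 in 26. The medians of their levels were 5.52 at ZT0, 6.80 at ZT6, 7.60 at ZT12 and 6.58 at ZT18, while the median nuclear gene stayed between 6.86 and 6.87. In bulk samples such as these, fewer cells of a type and less RNA per cell cannot be told apart.

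**Figure D1:**
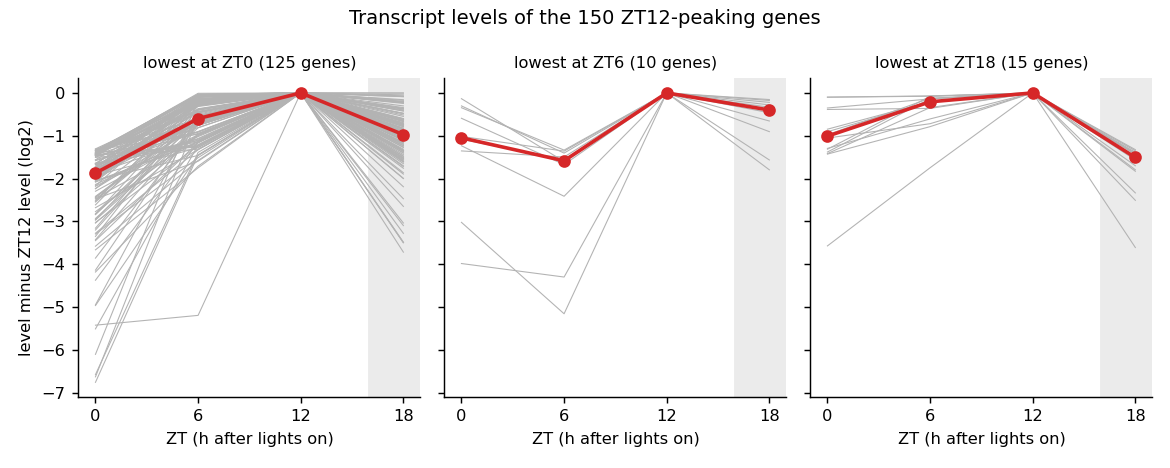
Level of each of the 150 genes at ZT0, ZT6, ZT12 and ZT18 (h after lights on), as the difference from its own ZT12 level (log2), in panels by the time of the lowest level. Grey lines are genes, the red line with points is the median of the panel, and the shaded band is the dark period. The 125 genes in the left panel were lowest at ZT0, 10 were lowest at ZT6 and 15 at ZT18.

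The rise toward ZT12 was early in some genes and late in others. The median gene had covered 73.3% of its range by ZT6 and held 51.0% of it at ZT18. In 66 genes the ZT6 level lay within 0.5 log2 units of the ZT12 level, and in 42 it lay more than 1 below. At ZT18, 32 genes were within 0.5 and 78 were more than 1 below. A sharp peak, with both ZT6 and ZT18 more than 1 below ZT12, was seen in 23 genes. The ZT6 level was above the ZT18 level in 103 genes. The 3 ZT12 values lay above all 3 ZT0 values in 143 of the 150 genes (24.3% of all nuclear genes tested), above all 3 ZT6 values in 83 (16.8%) and above all 3 ZT18 values in 110 (20.5%). The choice of the genes fixes these counts in part, and the comparisons share the ZT12 arrays.

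**Figure D2:**
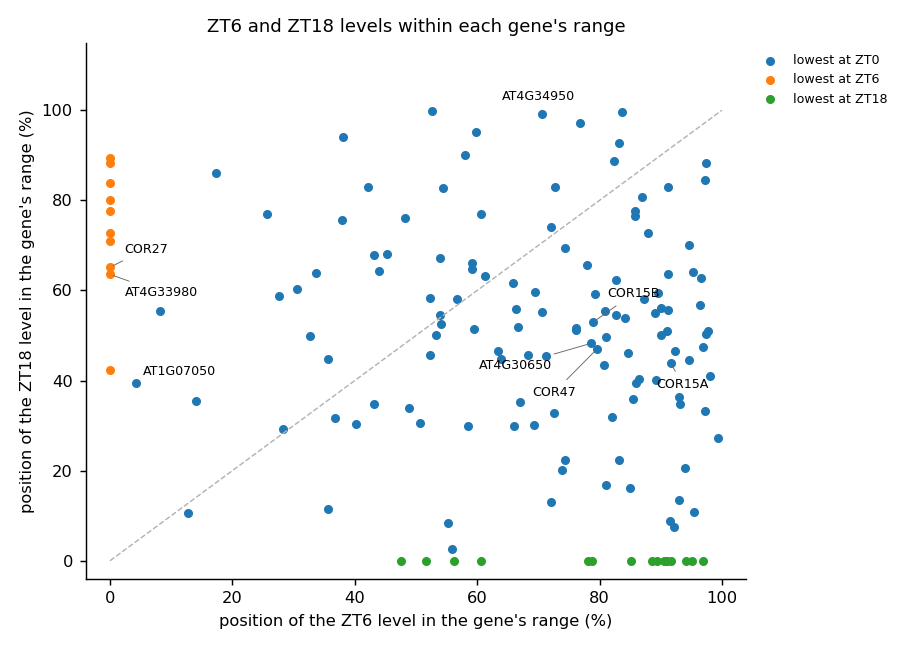
Position of the ZT6 level (horizontal axis, percent) and of the ZT18 level (vertical axis, percent) within each gene's range, where 0 is its lowest time and 100 its ZT12 level. Each point is 1 of the 150 genes, coloured by lowest time, and the dashed line marks equal positions. Of the 150 genes, 103 lie below the line with ZT6 above ZT18.

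The rule used the mean of the 3 fractions, so it favours a ZT12 peak in each of them, and the counts by fraction are a description. The highest mean lay at ZT12 in large polysomal RNA for 134 genes, in small polysomal RNA for 137 and in non-polysomal RNA for 129, and in all 3 fractions for 107. An exception among the genes of large range was AT4G34950, whose level was nearly equal at ZT12 and ZT18. Its large polysomal mean was 7.92 at ZT12 and 7.50 at ZT18, and its non-polysomal mean was 6.80 at ZT12 and 7.07 at ZT18, so that ZT12 was its highest time in large polysomal RNA alone.

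AT4G30650 had the largest range, 6.75 log2 units or 108-fold. It read 5.79, 5.53 and 5.01 at ZT0, 10.66, 11.00 and 10.59 at ZT6, 12.20, 12.15 and 12.24 at ZT12, and 8.64, 8.44 and 9.03 at ZT18 (log2 level, replicates 1 to 3). The 4 times did not overlap. Its neighbour in the gene order, AT4G30660, had levels of 7.54 ± 0.14, 11.99 ± 0.02, 12.48 ± 0.15 and 10.01 ± 0.60 at ZT0, ZT6, ZT12 and ZT18 (SD, n = 3). Cross-hybridisation between neighbouring genes of like sequence was not tested.

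Of the 12 genes of largest range, 4 were on the cold-regulated list. Of the 23 genes on that list 7 were tested, 6 of them were highest at ZT12 and 5 were among the 150, against 20.9% highest at ZT12 and 2.21% chosen over all nuclear genes tested. COR15A and COR15B, which encode chloroplast stromal proteins that protect membranes during freezing, came next by range. COR15A read 5.66, 5.80 and 4.98 at ZT0, 11.43, 11.72 and 11.50 at ZT6, 11.75, 12.74 and 11.83 at ZT12, and 8.17, 8.96 and 8.04 at ZT18 (log2 level). Its ZT12 values lay above all others, although replicates 1 and 3 were close to the highest ZT6 value, and its range was 98.8-fold. COR15B read 6.32, 6.45 and 5.76 at ZT0, 11.32, 11.39 and 11.37 at ZT6, 12.90, 12.76 and 12.60 at ZT12, and 9.54, 9.78 and 9.64 at ZT18. The times of COR15B did not overlap. COR47, which encodes a dehydrin, a hydrophilic protein of dry or cold cells, started from a higher base, with 8.60 ± 0.09 at ZT0, 10.63 ± 0.12 at ZT6, 11.15 ± 0.14 at ZT12 and 9.80 ± 0.39 at ZT18 (SD, n = 3).

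The other cold-regulated pair had another daily course. COR27, a cold-induced gene whose protein represses clock genes of the evening, was lowest at ZT6. It read 7.45, 8.24 and 8.26 at ZT0, 5.69, 6.46 and 5.40 at ZT6, 10.93, 10.87 and 11.21 at ZT12, and 9.15, 8.98 and 9.50 at ZT18 (log2 level). No time overlapped with another, and the range was 35.6-fold. AT4G33980, also on the cold-regulated list, read 4.14, 4.37 and 4.86 at ZT0, a mean of 4.14 ± 0.46 (SD, n = 3) at ZT6, 8.37, 8.50 and 8.45 at ZT12, and 6.60, 7.20 and 6.83 at ZT18 (log2 level). Its ZT0 and ZT6 values overlapped, and the ZT12 values lay apart from all others. Both of these genes had their lowest mean at ZT6, where COR15A had covered 91.6% of its range. Of the 2 other tested genes of the list, the dehydrin gene LTI30 had 7.29 ± 0.41 at ZT12, against 7.95 ± 0.17 at its highest time ZT6, and STZ, a zinc finger repressor gene, had its highest mean at ZT12 (6.35 ± 1.76) and was not chosen.

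**Figure D3:**
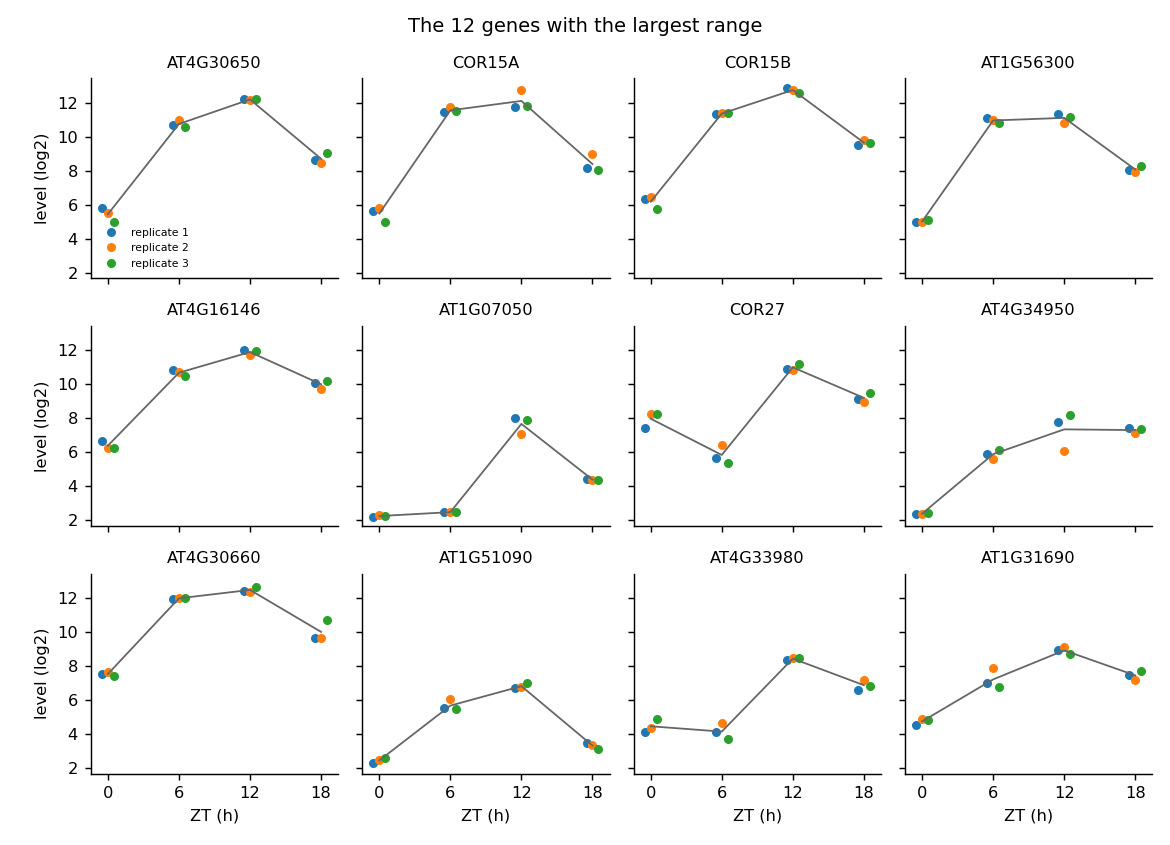
Level (log2, vertical axis) at ZT0, ZT6, ZT12 and ZT18 (h, horizontal axis) of the 12 genes with the largest range. Each point is 1 extract, coloured by replicate number and shifted sideways, and the line joins the means of 3 extracts. COR27 dips at ZT6, where COR15A is near its ZT12 level. AT4G33980 has its lowest mean at ZT6, with values that overlap those at ZT0. AT1G07050 stays near the bottom of the axis until ZT12.

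Other genes of large range carried no symbol in the gene table and are given by their locus codes. AT1G56300 had 5.01 ± 0.06 at ZT0, 10.96 ± 0.15 at ZT6, 11.11 ± 0.28 at ZT12 and 8.07 ± 0.18 at ZT18 (log2 level, SD, n = 3). Its ZT6 and ZT12 values overlapped. AT4G16146 had 6.40 ± 0.22, 10.69 ± 0.18, 11.90 ± 0.17 and 10.01 ± 0.23 at the same times. AT1G31690 had 4.75 ± 0.19, 7.22 ± 0.58, 8.93 ± 0.20 and 7.45 ± 0.24. In both, the ZT12 values lay above all others.

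AT1G07050 had a peak set apart from both neighbouring times. It had a mean of 2.25 ± 0.07 (SD, n = 3) at ZT0 and read 2.49, 2.49 and 2.47 at ZT6, 8.03, 7.08 and 7.91 at ZT12, and 4.44, 4.39 and 4.36 at ZT18 (log2 level). The lowest value in the whole table was 2.1975, next to its ZT0 and ZT6 values, so its range of 5.42 is a lower bound. AT4G34950 and AT1G51090 also lay near that value at ZT0: AT4G34950 had 7.36 ± 1.12 at ZT12, against 2.39 ± 0.04 at ZT0, and AT1G51090 had 6.82 ± 0.17 at ZT12, against 2.45 ± 0.14 at ZT0 (SD, n = 3). The level at the lowest time was under 4 in 26 of the 150 genes.

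Further genes lowest at ZT0 were AT1G11210, AT1G12845, AT2G38465 and AT1G16850, with ranges of 4.14, 3.86, 3.66 and 3.58 log2 units. Of the genes lowest at ZT18, AT3G20340 had the largest range with 3.61, followed by AT4G15660 (2.51), AT2G41190 (2.33) and AT1G68250 (1.83). In AT4G15660 the ZT12 peak was not set apart from the other daytime levels: it had 7.78 ± 0.13 at ZT0, 7.80 ± 0.15 at ZT6 and 7.88 ± 0.52 at ZT12, against 5.37 ± 0.87 at ZT18 (SD, n = 3). Of the genes lowest at ZT6, AT3G60420 (2.41), scpl35 (1.67), AT1G26665 (1.60) and AT4G30500 (1.57) followed COR27 and AT4G33980. At the end of the order, AT3G25130 and AT1G75900 were the last taken with ranges of 1.315 and 1.306, and AT3G27640 and AT2G44300 the first not taken with 1.302 and 1.293.

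Enzymes of starch metabolism were also present. Of 6 tested genes on a list of 30 for starch and sucrose metabolism, 3 were among the 150 (2.21% of all nuclear genes tested). DPE1, the plastid disproportionating enzyme that handles maltotriose during starch breakdown, read 6.72, 6.58 and 7.05 at ZT0, 9.43, 9.33 and 9.08 at ZT6, 9.88, 9.89 and 9.47 at ZT12, and 8.45, 8.48 and 8.21 at ZT18 (log2 level). Its ZT12 values all lay above its ZT6 values. PWD (AT5G26570), the phosphoglucan water dikinase that adds phosphate to starch ahead of its breakdown, read 7.12, 7.15 and 7.61 at ZT0, 8.21, 7.66 and 7.74 at ZT6, 9.41, 9.57 and 9.02 at ZT12, and 8.12, 7.91 and 7.64 at ZT18. At ZT6, PWD had covered 28.3% of its range and DPE1 84.2%. APL3, a large subunit of the ADP-glucose pyrophosphorylase of starch synthesis, had 3.63 ± 0.10 at ZT0, 5.75 ± 0.20 at ZT6, 5.80 ± 0.41 at ZT12 and 4.74 ± 0.32 at ZT18 (SD, n = 3). Its ZT6 and ZT12 values overlapped. The starch branching enzyme gene SBE2.2, the sucrose phosphate synthase gene ATSPS4F and the sucrose exporter gene SWEET11 were tested and were highest at ZT6, ZT18 and ZT0.

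Sulfur metabolism and protein folding were represented by single genes of their lists. APS3, an ATP sulfurylase gene of sulfate assimilation, had 6.73 ± 0.17 at ZT0, 7.75 ± 0.04 at ZT6, 8.49 ± 0.28 at ZT12 and 8.31 ± 0.32 at ZT18 (log2 level, SD, n = 3), with ZT12 and ZT18 values that overlapped. It was 1 of 2 tested genes of its list. AT2G29500, 1 of 2 tested genes of the heat shock list, had 4.24 ± 0.16, 5.83 ± 0.59, 5.96 ± 0.43 and 4.37 ± 0.23 at the same times. None of the tested genes on the lists for photosynthesis (11), leaf markers (9), expansins and xyloglucan hydrolases (6), glucosinolates (3), phenylpropanoids and flavonoids (3), auxin response (3), the clock (2), cell division (1) and root markers (1) was among the 150. On the lists for jasmonate, for gibberellin and brassinosteroid synthesis, and for wax and lipids, 0 genes were tested. The array's probe table names few genes of most lists, so these counts speak only for the genes tested. Over all nuclear genes tested, 2.21% were among the 150. The lists were chosen with earlier results of these data known, so their counts are a description.

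Genes named in the gene table but on no list were looked up after their values were seen. Among genes for chloroplast proteins, CHL, a plastid lipocalin, had 10.24 ± 0.14 at ZT0, 11.18 ± 0.09 at ZT6, 12.32 ± 0.19 at ZT12 and 11.66 ± 0.15 at ZT18 (log2 level, SD, n = 3). Cpn60beta2, a subunit of the chloroplast chaperonin, had 10.00 ± 0.17, 11.00 ± 0.10, 11.40 ± 0.27 and 10.64 ± 0.13 at the same times. Both were bright at all times. SUFE2, a gene for a factor of iron-sulfur cluster assembly, had 4.39 ± 0.17 at ZT0, 5.18 ± 1.09 at ZT6, 5.89 ± 0.71 at ZT12 and 5.89 ± 0.30 at ZT18. CCL, a gene known for clock-controlled mRNA decay, had 9.44 ± 0.20, 12.21 ± 0.29, 12.59 ± 0.08 and 11.74 ± 0.07. The ZT12 values of CCL lay above all its others. TUB5, a beta-tubulin gene, had 9.52 ± 0.27, 10.86 ± 0.09, 10.93 ± 0.06 and 10.51 ± 0.17, with ZT6 and ZT12 values that overlapped.

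Further genes with a symbol were also named after their values were seen. PRXR1, a peroxidase gene, ranged over 2.03 log2 units, and ATMDAR2, a monodehydroascorbate reductase gene that recycles ascorbate, over 1.57. XERICO, a RING-type gene that raises abscisic acid, had 7.92 ± 0.13 at ZT0, 9.75 ± 0.14 at ZT6, 9.80 ± 0.34 at ZT12 and 8.54 ± 0.17 at ZT18 (SD, n = 3), with ZT6 and ZT12 values that overlapped. The glycosyltransferase genes UGT85A5 and UGT80B1, of which UGT80B1 acts on sterols, ranged over 2.23 and 2.06. The serine carboxypeptidase-like genes SCPL49 and scpl35 did not share a low point: SCPL49 had 8.48 ± 0.18 at ZT12, against 6.04 ± 0.27 at its lowest time ZT0, and scpl35 had 7.46 ± 0.21 at ZT12, against 5.79 ± 0.27 at its lowest time ZT6. WLIM2a, an actin-bundling LIM protein gene, ranged over 2.51, the defensin gene PDF2.1 over 2.18, the methionine aminopeptidase gene MAP1C over 1.72, AR781 over 1.74, and the protease inhibitor gene SERPIN1 over 1.56.

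In some of the late-day transcripts 1 extract stood apart at ZT12. The ZT12 SD of the members' levels had a median of 0.28, against 0.16 at ZT0, 0.20 at ZT6 and 0.22 at ZT18. In 17 of the 150 genes, ZT12 replicate 2 lay more than 1 log2 unit above both other ZT12 replicates, and in 4 it lay more than 1 below both. The rule takes genes with a high ZT12 mean, so it favours genes with 1 high ZT12 extract, but it treats the 3 replicates alike. The highest ZT12 value lay in replicate 1 in 32 genes, in replicate 2 in 82 and in replicate 3 in 36. Mean ZT12 levels of the 150 genes were 7.88, 8.09 and 7.79 in replicates 1 to 3, against 7.11, 7.09 and 7.10 over all genes tested. Counts by replicate over all genes were not made, and the cause was not tested. These SDs and counts are a description. WRKY53, a transcription factor gene of senescence and defence, read 6.43, 9.05 and 7.17 at ZT12 and 6.05, 6.29 and 6.16 at ZT0. OPCL1, which encodes a ligase of jasmonate synthesis, read 4.77, 7.11 and 4.69 at ZT12 and 3.75, 3.27 and 3.68 at ZT0. AT3G04640 had the widest ZT12 spread, with 6.60, 9.55 and 5.90 at ZT12 and 5.26, 4.81 and 5.57 at ZT0. In all 3 genes replicate 2 stood above the other ZT12 extracts, while the ZT0 values were close together. The expansin-like gene EXLB1 (5.59, 6.76 and 4.96 at ZT12) and the glucosinolate transporter gene GTR1 (7.35, 8.43 and 7.27) also read highest in replicate 2. Without ZT12 replicate 2, 117 of the 150 genes were chosen again, and of the 17 genes 7 were.

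Some of these transcripts came from neighbouring genes. Of the 148 genes with a place in the gene table, 5 pairs were direct neighbours and 3 pairs stood 1 gene apart, involving 15 genes. The corresponding counts were 6 and 1 pairs among the 150 genes chosen in the same way for a ZT6 peak, and 2 and 3 among those for a ZT18 peak. Genes chosen for a ZT0 peak had 3 and 1. Pairs over all nuclear genes tested were not counted. The direct neighbours were COR15B and COR15A, AT4G30650 and AT4G30660, AT4G33980 and AT4G33985, AT2G43530 and AT2G43535, and AT1G07040 and AT1G07050. AT4G33985 had means of 4.02, 4.27, 5.48 and 5.28 at ZT0, ZT6, ZT12 and ZT18. Its lowest mean was at ZT0 and that of AT4G33980 at ZT6, but the ZT0 and ZT6 values of AT4G33980 overlapped. The daily course of neighbours was not always alike. AT1G07040 had means of 8.25, 9.10, 9.23 and 7.72, whereas AT1G07050 stayed next to the table's lowest value at ZT0 and ZT6.

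Large polysomal and non-polysomal RNA were compared to ask how transcripts with a late-day peak are loaded with ribosomes relative to other genes. The median difference over all genes tested was 0.03 log2 units at ZT12, whereas added polyadenylated controls differed by -1.61. A call of higher or lower is therefore read against the genes tested. The share of a transcript's RNA that was in polysomes was not measured. At ZT12, 52 of the 150 were higher in large polysomal RNA (28.2% of all 6846 genes tested), 31 were lower (28%) and 67 did not pass (limma, Benjamini-Hochberg adjusted p under 0.05). The median difference of the 150 genes was 0.25 log2 units, against 0.03 over all genes tested. The 150 genes chosen for a ZT6 peak were close to this at ZT12, with 55 higher, 29 lower and a median of 0.27. Those chosen for a ZT18 peak had 34 higher, 35 lower and a median of 0.04. Among the late-day genes the counts were as follows. The difference exceeded 1 log2 unit in 32 of the 52 and in 22 of the 31. All 3 extracts lay on the same side of 0 in 50 of the 52 and in 31 of the 31. Over the mean of the 4 times, 68 were higher (40.2% of all genes tested) and 42 were lower (37.5%). Of these, 42 of the 68 were higher and 29 of the 42 lower in 12 of 12 extracts. The same extracts gave the calls, which fix these counts of sizes and extracts in part. The like counts over all genes called were not made. This fit did not use the pairing of fractions within an extract. With the extract as a replicate block, which uses it, 63 were higher and 38 lower at ZT12, against 2192 and 2188 of all genes tested. Over the mean of the 4 times the block gave 73 and 48, against 2889 and 2709 of all genes tested.

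**Figure D4:**
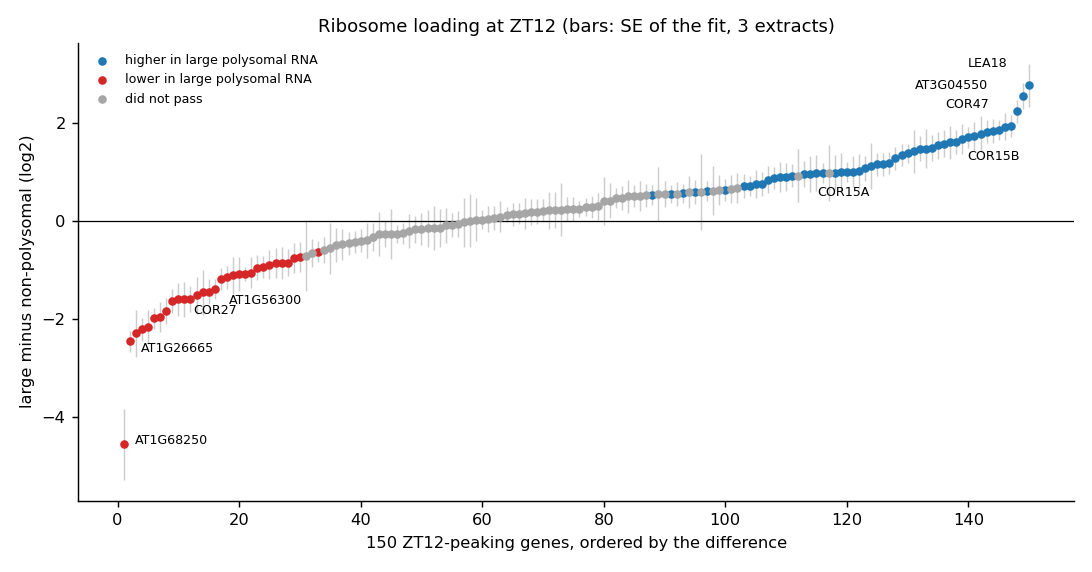
Large minus non-polysomal value at ZT12 (log2, vertical axis) of the 150 genes in the order of that difference (horizontal axis). Points are means of 3 extracts and bars the SE of the limma fit. The 52 blue points were called higher in large polysomal RNA, the 31 red points lower and the 67 grey points did not pass.

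LEA18, a late embryogenesis abundant protein gene, had the largest difference among the 150 at ZT12. Its level was lowest at ZT18, and its ZT12 levels overlapped those at ZT0 and ZT6. It read 7.09, 8.12 and 7.23 in large polysomal RNA, against 4.50, 4.82 and 4.82 in non-polysomal RNA (log2), a difference of 2.77 ± 0.44 (SE, limma adjusted p = 4.47e-06). AT3G04550 read 10.75, 10.34 and 10.34 in large polysomal RNA, against 8.29, 7.79 and 7.70 in non-polysomal RNA, a difference of 2.55 ± 0.26 (adjusted p = 2.96e-09). COR47 read 12.32, 12.35 and 12.49 in large polysomal RNA, against 9.88, 10.53 and 10.04 in non-polysomal RNA, a difference of 2.24 ± 0.23 (adjusted p = 3.87e-09). In these 3 genes every large polysomal value lay above every non-polysomal one. AT1G67750 (1.93), AT1G07040 (1.92) and AT2G47390 (1.86) followed.

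At the other end, AT1G68250 read 3.12, 4.69 and 3.33 in large polysomal RNA, against 7.22, 8.70 and 8.89 in non-polysomal RNA (log2), a difference of -4.56 ± 0.73 (SE, limma adjusted p = 4.37e-06). The lowest value of the whole table was 2.1975. AT1G26665 read 8.51, 8.21 and 8.63 in large polysomal RNA, against 10.99, 10.65 and 11.07 in non-polysomal RNA, a difference of -2.46 ± 0.22 (adjusted p = 1.55e-10). Neither gene's fractions overlapped. AT1G19960 (-2.29), AT5G53420 (-2.21), AT2G20480 (-2.16) and AT4G19390 (-1.99) were the next lowest. By the time of the lowest level, the counts differed, which was not tested. Of the 10 genes lowest at ZT6, 7 were lower in large polysomal RNA at ZT12 and 1 was higher, with a median of -0.98. Of the 125 lowest at ZT0, 20 were lower and 44 higher, with a median of 0.28, and of the 15 lowest at ZT18, 4 were lower and 7 higher, with a median of 0.62.

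The cold-regulated genes lay on both sides of this comparison. COR15B, lowest at ZT0, read 13.86, 13.49 and 13.65 in large polysomal RNA at ZT12, against 12.09, 12.18 and 11.89 in non-polysomal RNA (log2), a difference of 1.61 ± 0.24 (SE, limma adjusted p = 2.14e-06). COR15A was higher by 0.96 ± 0.37 (adjusted p = 0.0274). COR27, lowest at ZT6, read 10.19, 10.16 and 10.37 in large polysomal RNA, against 11.81, 11.68 and 12.05 in non-polysomal RNA, a difference of -1.60 ± 0.33 (adjusted p = 0.000132). AT4G33980 had a difference of -0.87 ± 0.31 (adjusted p = 0.017). The calls of COR15A and AT4G33980 ended without ZT12 replicate 1 (0.73 and -0.75) and without ZT12 replicate 3 (0.87 and -0.66), and that of COR15A also ended with no minimum mean, where more genes share the adjustment (0.96, limma adjusted p = 0.0683). Over the mean of 4 times the differences were 2.54 ± 0.12 for COR47, 1.09 ± 0.18 for COR15A, -2.29 ± 0.16 for COR27 and -1.17 ± 0.15 for AT4G33980, all 4 past the threshold.

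Genes of other roles also lay on both sides. Among starch genes, PWD was higher in large polysomal RNA at ZT12 by 1.48 ± 0.26 (log2, SE, limma adjusted p = 2e-05) and APL3 by 0.96 ± 0.27 (adjusted p = 0.00311), and DPE1 had 0.46 ± 0.21, which did not pass (adjusted p = 0.057). APS3 was higher by 0.87 ± 0.23 and SCPL49 by 1.71 ± 0.21, and scpl35 had -0.40 ± 0.23, which did not pass. UGT80B1 was higher by 1.15 ± 0.23 and UGT85A5 was lower, with -0.95 ± 0.25. The call of UGT85A5 ended without ZT12 replicate 1 (-0.77), and that of APS3 without replicate number 1 at all times (0.75). EXLB1 (1.78), PDF2.1 (1.48), SERPIN1 (1.35), MAP1C (1.07) and Cpn60beta2 (1.00) were higher as well. The transcript of largest range, AT4G30650, had 0.05 ± 0.26 and did not pass, and AT1G56300 was lower, with -1.39 ± 0.20. Neighbouring genes differed here too: AT1G07040 was higher by 1.92 ± 0.27, and AT1G07050 had 0.06 ± 0.25, which did not pass. That difference between neighbours was not tested.

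Large and small polysomes were compared over the mean of the 4 times, again relative to the other genes tested. Of the 150 genes 53 were higher in large than in small polysomal RNA (30% of all genes tested) and 37 were lower (31.2%), with a median of 0.17 log2 units against -0.0045 over all genes tested. COR47 (1.61), AT3G04550 (1.60), COR15A (1.53) and COR15B (1.44) were among the higher ones, and AT1G19960 (-2.26), AT2G20480 (-1.95) and COR27 (-0.93) among the lower ones. The 150 genes chosen for a ZT6 peak had 69 higher and 29 lower, and those chosen for a ZT18 peak had 30 higher and 41 lower. These differences between the sets were not tested.

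Whether loading changed over the day was asked by a difference of differences, the large minus non-polysomal value at ZT12 minus that at another time. Such changes are also relative to the other genes tested. The 3 contrasts share the ZT12 arrays. Against ZT0, 1 of the 150 genes was higher (0.117% of all genes tested) and 0 were lower (0.0292%) in limma, and 14 and 7 were at an unadjusted p under 0.05, together 14% of the 150 genes and 6.84% of all genes tested. Against ZT6, 0 were higher and 0 lower (0% for both directions), with 2 and 2 at an unadjusted p under 0.05, which is 2.67% of the 150 genes and 3.17% of all genes tested. Against ZT18, 0 were higher (0.0438%) and 0 lower (0.161%), with 8 and 7 at an unadjusted p under 0.05, which is 10% of the 150 genes and 11.7% of all genes tested. Restricted to genes whose 4 group means were all at least 4, the counts were 1 higher and 0 lower of 117 members against ZT0 (0.113% and 0.0322% of all such genes), 0 and 0 of 138 against ZT6 (0%), and 0 and 0 of 138 against ZT18 (0.016% and 0.144%).

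A replicate block for the extract uses the pairing of fractions within it, and more genes passed there. Against ZT0, 3 were higher (0.526% of all genes tested) and 1 was lower (0.248%). Against ZT18, 1 was higher (0.657%) and 4 were lower (1.97%), and against ZT6 the counts stayed at 0 and 0 (0%). An F test over the 4 times called 7 of the 150 genes (2.85% of all genes tested), of which 6 were among the 112 with all 8 group means at least 4 (2.94% of all such genes). With the block it called 24 (11.2% of all genes tested). Without replicate number 1, 2 or 3 in the fit without the block it called 0 of the 150, and 0, 0 and 1 of all genes tested. A further fit left out ZT18 replicates 2 and 3, the extracts with high plastid-encoded signal. That last fit had 1 extract at ZT18, which was assumed to vary like the extracts of the other times, so it cannot speak for the spread at ZT18.

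AT4G32340 was the gene whose loading rose at ZT12 against ZT0. Its large minus non-polysomal difference was 0.25, -0.32 and -0.44 at ZT12, against -2.33, -2.37 and -2.27 at ZT0 (log2, replicates 1 to 3). The values did not overlap. The change was 2.15 ± 0.40 (SE, limma adjusted p = 0.0133), and with the replicate block 2.15 ± 0.25 (adjusted p = 1.86e-05). The call ended in the fit without the block when any replicate number was left out and when single extracts of ZT0 or ZT12 replicate 1 were left out (changes of 1.94 to 2.31, limma adjusted p = 0.0548 to 0.574). Its difference at ZT6 was -0.36 and at ZT18 -0.97, and its smallest group mean of 7.36 was well above the table's lowest value.

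COR27 moved in the same direction. Its difference was -1.61, -1.52 and -1.67 at ZT12, against -3.50, -3.59 and -3.53 at ZT0 (log2), with -1.75 at ZT6 and -2.26 at ZT18 as means. The ZT12 and ZT0 values did not overlap. The change of 1.94 ± 0.47 (SE) did not pass in the fit without the block (limma adjusted p = 0.0692) and passed with the replicate block (1.94 ± 0.26, adjusted p = 8.05e-05), and the F test over the 4 times passed in both (adjusted p = 0.0383 and 8.06e-05). The large minus non-polysomal difference of COR27 was lowest at ZT0, while its level was lowest at ZT6. SUFE2 had 1.15, 0.01 and 1.61 at ZT12, against -0.62, -0.96 and -0.70 at ZT0, and its change of 1.69 passed with the block (limma adjusted p = 0.0238) and not without it (0.691).

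CCL moved in the opposite direction. Its difference was 0.82, 0.81 and 0.53 at ZT12, against 2.05, 2.36 and 1.51 at ZT0 (log2), with 0.67 at ZT6 and 0.91 at ZT18 as means. Its values at ZT0 lay above all ZT12 values, at the time when its level was lowest. The change of -1.26 ± 0.29 (SE) did not pass in the fit without the block (limma adjusted p = 0.0523) and passed with the replicate block (adjusted p = 0.00587).

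**Figure D5:**
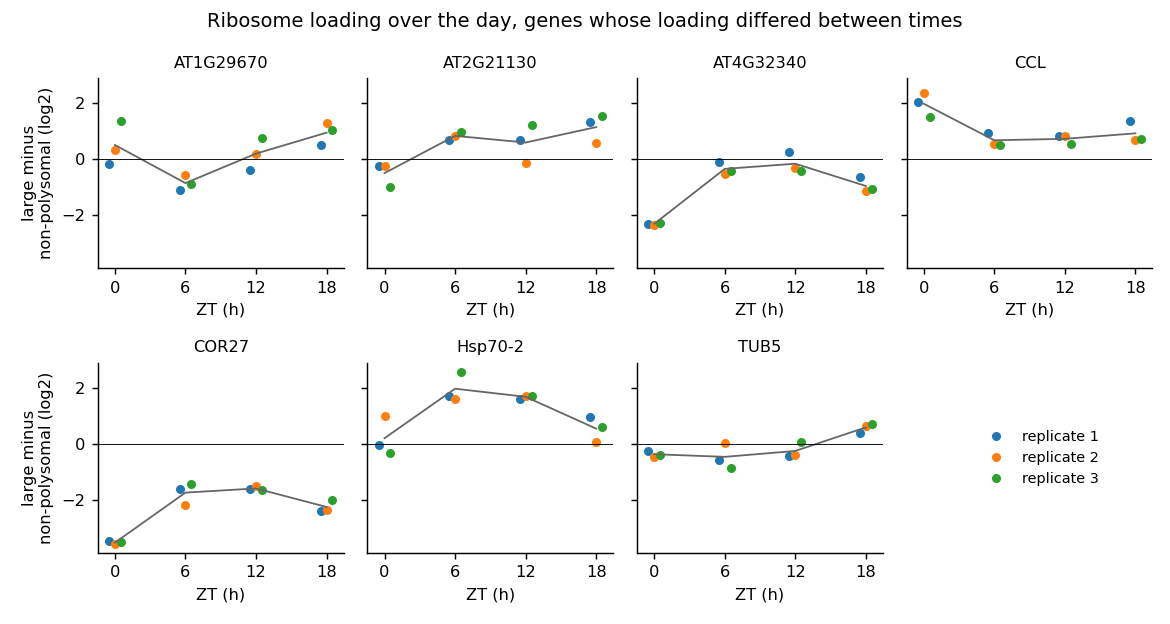
Large minus non-polysomal value (log2, vertical axis) at ZT0, ZT6, ZT12 and ZT18 (h, horizontal axis) of the 7 genes called by the F test over the 4 times. Each point is 1 extract, coloured by replicate number and shifted sideways, and the line joins the means. AT4G32340 and COR27 have their lowest values at ZT0 and CCL its highest, and TUB5 lies above 0 at ZT18.

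Of the other genes called by the F test, AT2G21130 and Hsp70-2 had their lowest mean difference at ZT0, like AT4G32340 and COR27. AT1G29670 had its lowest at ZT6, and TUB5 its highest at ZT18. TUB5 had -0.44, -0.41 and 0.06 at ZT12, against 0.38, 0.64 and 0.72 at ZT18 (log2). The values did not overlap, and the change of -0.84 ± 0.26 (SE) passed with the replicate block (limma adjusted p = 0.0407) but not without it (0.167). AT1G29670 had means of 0.50, -0.86, 0.19 and 0.94 at ZT0, ZT6, ZT12 and ZT18, and AT2G21130 had -0.51, 0.82, 0.59 and 1.14. Hsp70-2, a cytosolic chaperone gene, had means of 0.19, 1.96, 1.67 and 0.54, with a smallest group mean of 3.80.

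Against ZT18, 3 further genes were lower with the replicate block. They were AT1G12080 (-1.78, limma adjusted p = 0.0286), AT4G30500 (-1.24, adjusted p = 0.0286) and AT1G25530 (-1.30, adjusted p = 0.0328). For AT1G12080 the values were 0.40, 0.04 and 2.52 at ZT12, against 2.70, 2.67 and 2.92 at ZT18, so ZT12 replicate 3 lay close to the ZT18 values. APL3 was the gene that was higher, with 0.70, 1.25 and 0.94 at ZT12, against 0.07, 0.25 and -0.36 at ZT18, a change of 0.97 (limma adjusted p = 0.0475, and 0.31 without the block).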

How the data were processed

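Polysome fractions of 12 extracts were hybridised to 36 Affymetrix arrays. The deposited table holds a log2 value per probe set, which the authors computed with GCRMA (affy 1.42.3, R 3.1), per the submitters' processing notes. Arrays give no counting depth, so precision rests on 3 arrays a group. Probe sets of a single gene were kept, the brightest per gene, with a mean of at least 4 over the 36 arrays, which left 6846 genes, 6778 of them nuclear. Of 22810 probe sets, 13513 were paired with 1 gene, 503 with several and 8730 with none in the probe table used here. Symbols came from a RefSeq gene table of TAIR10.1, used for names and gene order only, and other genes keep their AGI locus code.

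Large minus non-polysomal and large minus small values, and their changes between times, were tested in limma 3.58.1 (R 4.3.3) on 12 groups of time and fraction, with both directions tested and Benjamini-Hochberg adjustment over all 6846 genes. Deviations from the group means correlated at 0.13 to 0.68 in 36 of 36 fraction pairs of an extract, so the replicate numbers pair the fractions. The fit was tested on simulated data. Tables and figures were made with Python 3.11.15.

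The genes and lists were chosen with earlier results of these data known. Genes named were the 12 of largest range, 4 more for each lowest time, the 6 highest and 6 lowest in loading at ZT12, called loading changes, list members, symbol families and the genes beside the range cutoff. Others were named after their values were seen. Alternatives were median centring, cyclic loess, other filters and summaries, other variance settings, the replicate block and left-out extracts.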

Additional observations from a re-analysis of the deposited data

Results flagged for a closer look

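The large minus non-polysomal difference of 7 genes differed between times of day by the F test over the 4 times (limma, Benjamini-Hochberg adjusted p under 0.05). The gap between the highest and the lowest of the 4 mean differences, in log2 units, was 2.15 in AT4G32340, 1.94 in COR27, 1.80 in AT1G29670 and 1.77 in Hsp70-2. It was 1.64 in AT2G21130, 1.31 in CCL and 1.05 in TUB5. The adjusted p lay between 0.00808 for AT4G32340 and 0.0485 for TUB5. With a replicate block for the extract these 7 genes had an adjusted p between 1.22e-05 for AT4G32340 and 0.0077 for TUB5. No outlier test of single samples was run, because each group had 3.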

How the results depend on the processing

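Of 296 counts recomputed under an alternative, 268 stayed within 1.5 times of the reported count. Across all alternatives the genes higher in large than in non-polysomal RNA at ZT12 numbered 40 to 63 and the lower ones 21 to 38. Over the mean of 4 times these were 59 to 73 and 35 to 48, and against small polysomal RNA 44 to 65 and 29 to 42. The changes between times moved more. With the replicate block, the change against ZT0 had 3 genes higher and 1 lower, the change against ZT18 had 1 higher and 4 lower, and the F test over the 4 times called 24. The change against ZT0 had 1 gene lower with no minimum mean and 1 with a trended robust variance. With 1 replicate left out at a time, the change against ZT0 had 0 to 2 higher and 0 to 1 lower, the change against ZT18 had 0 to 2 lower, and the F test called 0 to 8. An alternative chosen after seeing the data left out ZT18 replicates 2 and 3, where plastid-encoded signal was high, and the F test then called 1, with 1 extract at ZT18 that was assumed to vary like those of the other times. Of 40 named genes called in loading at ZT12, 11 lost the call under at least 1 alternative. Of 171 single-gene results, 124 kept their direction and side of the threshold under every alternative run, and 0 reversed. The choice of the 150 genes gave 109 to 147 of them again. The cause of these differences was not tested. Genes near the table's lowest value have ranges and differences that are bounds.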
